A study of Mus musculus with 47 samples.

Results

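RNA sequencing of whole C2C12iMyoD1 cultures after 120 h of serum starvation compared 3 libraries from dox-treated cells with 3 from untreated cells. These 6 libraries were taken from the 47 of the study by their labels, which give the cell line, the time, the bulk population and the treatment. C2C12 is a mouse skeletal muscle myoblast line, and C2C12iMyoD1 carries, beside its own *Myod1*, a doxycycline-inducible Halo-MyoD1 transgene that was integrated with PiggyBac and selected as a pool of cells rather than a single clone. Both groups carry the transgene, and the untreated cells received vehicle. Dox was added when serum was withdrawn, the medium was not replaced afterwards, and not every nucleus expressed Halo-MyoD1. All cells of the dish, unfused myoblasts and myotubes alike, entered the extraction, and polyadenylated RNA was sequenced. Undifferentiated cells, 24 h and 48 h whole cultures, and fractions of 120 h cultures enriched for myoblasts or myotubes were also sequenced. The question here is which genes differed between dox-treated and untreated cultures at the latest time. No RNA library came from dox-treated cells without an inducible transgene, so an effect of dox itself on these genes was not tested. For a related line with tagged endogenous MyoD1, the paper reports that dox-induced Halo-MyoD1 had fallen back close to endogenous levels before this latest time. The libraries do not give the MyoD1 protein level.

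MyoD1 is a basic helix-loop-helix transcription factor that binds E-box sequences and commits cells to the skeletal muscle lineage. In differentiating myoblasts it switches on *Myog* and, with it, the contractile genes, while the membrane proteins Myomaker (*Mymk*) and Myomixer (*Mymx*) drive fusion into multinucleated myotubes. ATF4, which appears below, is the transcription factor of the integrated stress response and drives genes for amino acid synthesis and transport and for stress signalling.

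The 6 libraries held between 22370787 and 25394025 estimated counts, and 13628 genes passed the filter on low counts. Skeletal myocyte markers fitted the labelled cell type, with all 8 of 8 tested and a summed level of 16639 to 20205 CPM (counts scaled to a common library size) in untreated and 11603 to 13618 CPM in dox-treated cultures. Markers of other cell types were low: the 6 endothelial markers summed to 0.187 to 0.729 CPM without dox and 0.828 to 1.37 CPM with dox, with *Tie1* and *Emcn* at 0, and the 8 blood cell markers to 1.71 to 2.80 and 3.03 to 5.94 CPM, with *Adgre1* and *Cd3e* at 0. The 10 Schwann cell and neuron markers summed to 15.4 to 18.007 CPM without and 7.31 to 7.69 CPM with dox, the 8 adipocyte markers to 19.04 to 19.7 and 14.4 to 17.3 CPM, and the 10 bone and cartilage markers to 98.9 to 106 and 55.0 to 56.4 CPM. Their part in the results was not tested. All 6 libraries share 1 batch label.

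*Myod1* itself, at chr7:46376474-46379099 on mm10, fell. Its level was 289.5, 288 and 219 CPM in the 3 untreated libraries and 77.3, 92.1 and 90.0 CPM in the 3 dox-treated libraries (log2 fold change -1.62, SE 0.126, edgeR adjusted p = 1.32e-05). All dox-treated libraries were below all untreated ones. Whether the transgene was part of the reference the counts were made from is not given in the sources used here, so the *Myod1* counts do not check the dox labels. Because these are bulk libraries, a lower level can come from fewer cells of a type or from less RNA per cell, and these cannot be told apart.

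*Myog* (ENSMUSG00000026459), the myogenic factor that marks commitment to differentiation, fell further, from 2663, 2118 and 1817 CPM to 354, 379.7 and 367 CPM (log2 fold change -2.58, SE 0.138, edgeR adjusted p = 1.69e-06). The untreated libraries spread more than the dox-treated ones, and the groups did not overlap. Of 16 myogenic regulators, 14 were tested, and at an adjusted p under 0.05 7 were lower and 2 higher, against 23.7% and 21.4% of all genes tested. *Mef2c*, a MADS-box partner of the myogenic factors, went from 263 ± 11.8 CPM (SD, n = 3) to 97.6 ± 4.09 CPM (log2 fold change -1.43), and *Tead4*, a muscle gene activator, fell by 1.48 on the log2 scale. The increases were in the progenitor factors *Pax7*, from 64.5, 66.3 and 56.2 CPM to 111, 105 and 112 CPM (0.81), and *Eya1*, a transcriptional co-activator (1.59). *Myf5*, an early myogenic factor, had 6.82 ± 1.11 and 6.36 ± 1.40 CPM and did not pass the test. The list median was -0.46, beside -0.00 for all genes tested, and it was -0.25 with library totals alone and -0.14 with genes that have an opposite-strand overlap left out.

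Both fusogens were lower with dox. *Mymk* had 1416, 1383 and 1115 CPM in untreated and 646, 737 and 764 CPM in dox-treated cultures (log2 fold change -0.87, SE 0.113, edgeR adjusted p = 0.000295). *Mymx* had 68.4, 56.4 and 49.4 CPM against 26.3, 30.3 and 32.4 CPM (-0.97, SE 0.141, adjusted p = 0.000537). Neither gene had overlapping groups, and neither changed by more than 2-fold, although *Mymx* did without untreated replicate 3 (-1.08) or dox-treated replicate 3 (-1.04). Among 24 genes linked to myoblast fusion, 19 were tested, 7 were lower and 6 higher, beside 23.7% and 21.4% of all genes tested. The median was -0.13, and it was above 0 with library totals alone (0.07) and with genes that have an opposite-strand overlap left out (0.02). Past 2-fold, where 8.8% of all genes tested fell and 7.32% rose, 3 fell, the membrane repair protein gene *Dysf* (-1.14), the caveolar *Cav3* (-1.11) and the membrane-bending *Bin1* (-1.10), and 3 rose, the calcium-responsive factor *Nfatc2* (1.79), the Rac activator *Dock1* (1.05) and the junction molecule *Jam3* (1.01). None of the 3 decreases was past 2-fold with library totals alone (-0.93, -0.90 and -0.90), nor was *Cav3* without untreated replicate 1 (-0.92). *Dock1* was under 2-fold without untreated replicate 1 (0.96) or dox-treated replicate 1 (0.98), and *Jam3* without untreated replicate 3 (0.94), dox-treated replicate 2 (0.99) or dox-treated replicate 3 (0.99). Without dox-treated replicate 3, 3 genes of the list were higher in place of 6.

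**Figure D1:**
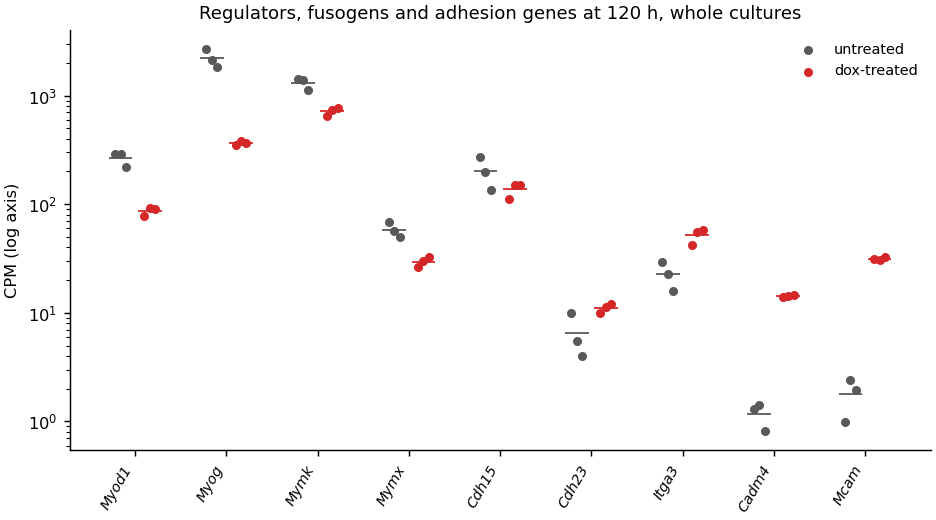
Level in CPM (log axis) of Myod1, Myog, the fusogens Mymk and Mymx, and the 5 adhesion candidates in each of the 3 untreated and 3 dox-treated whole cultures at 120 h, 1 point per library with the mean as a short line. Myog sits between 1817 and 2663 CPM without dox and between 354 and 379.7 CPM with dox, whereas Mcam and Cadm4 are higher in every dox-treated library.

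Across all genes, 997 were upregulated (7.32% of 13628) and 1199 downregulated (8.8%) at an adjusted p under 0.05 and more than 2-fold. Without the fold requirement 2922 genes were higher (21.4%) and 3232 lower (23.7%), so that 45.2% of the genes tested passed. In 55.2% of the genes the dox-treated and untreated libraries did not overlap, 3751 with dox higher and 3778 with dox lower. Scaling by library totals alone moved the median of all genes by 0.20 and gave 1489 up and 869 down, so that up calls made 63.1% of the calls in place of 45.4%. No gene that passed the test and is described here turned its direction under it. The decreases of *Acta1*, *Alcam*, *Bin1*, *Cacna1s*, *Cav3*, *Chrna1*, *Ddit4*, *Dysf*, *Heyl*, *Id1*, *Igfbp4*, *Igfbp5*, *Jsrp1*, *Ltbp4*, *Ncam1*, *Rbpj*, *Sox9* and *Tgfb3*, all called, were then under 2-fold (-0.98 to -0.80), and the increases of *Pax7*, *Myh3*, *Lama2*, *Stat2* and *mt-Co3* were past it (1.01 to 1.15). Among the genes called, 305 up and 357 down overlap another gene on the opposite strand, and whether counting used strand is not given, so their reads cannot be told apart from their partner's. Of the genes named here, those with such an overlap are *Ache*, *Akr1b7*, *Avil*, *Bin1*, *Cacna1s*, *Cacnb1*, *Cdkn1a*, *Cebpb*, *Ckmt2*, *Clcn1*, *Cox6a2*, *Ddit3*, *Dysf*, *Eln*, *Fbxo32*, *Fn1*, *Fras1*, *Gadd45a*, *Gja5*, *Gpd1*, *H19*, *Hspb6*, *Igf2*, *Irf7*, *Irs2*, *Itga7*, *Itga8*, *Jam3*, *Junb*, *Lama2*, *Ltbp2*, *Mb*, *Mcam*, *Mcm7*, *Mybpc2*, *Myh1*, *Myh2*, *Myh7*, *Ncam1*, *Notch1*, *Notch3*, *Nrxn3*, *P2rx3*, *Pck2*, *Phkg1*, *Prg4*, *Psmb8*, *Psph*, *Runx2*, *Shmt2*, *Spry1*, *Tgfb3*, *Tm6sf1*, *Xirp2* and *mt-Nd5*.

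**Figure D2:**
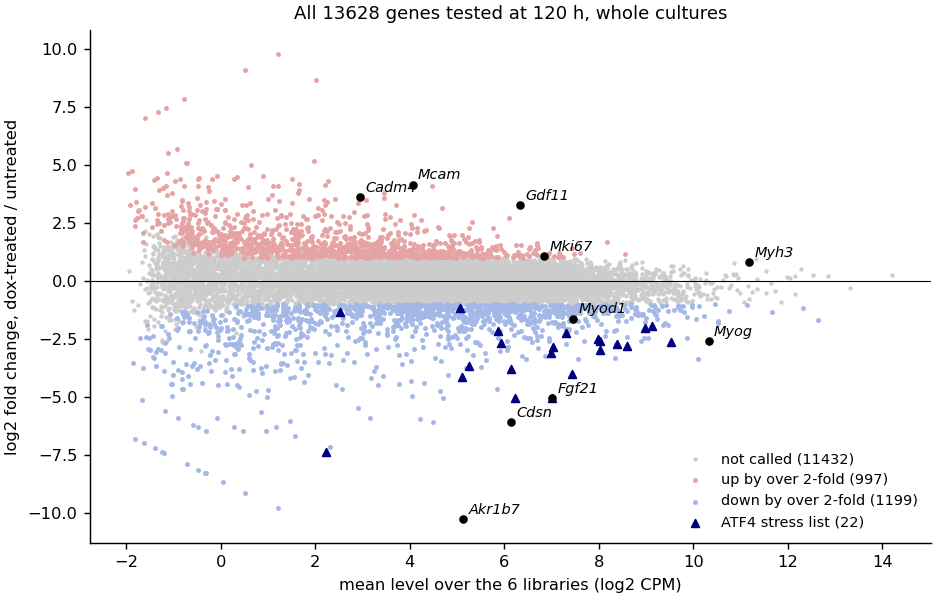
Log2 fold change of dox-treated over untreated cultures (vertical) against the mean level over the 6 libraries in log2 CPM (horizontal) for the 13628 genes tested at 120 h, 1 point per gene. Red points were called up (997), blue ones down (1199), triangles mark the ATF4 stress list and black points some named genes, and changes of both signs occur from weak to abundant genes.

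Of the 5 cell adhesion candidates of the study, 3 were upregulated. The summed level of the 5 was 159 to 312 CPM without and 210 to 267 CPM with dox, and the ranges overlap. *Cadm4* (chr7, ENSMUSG00000054793), an immunoglobulin-type adhesion molecule, rose from 1.31, 1.41 and 0.812 CPM to 13.9, 14.4 and 14.7 CPM (log2 fold change 3.60, SE 0.228, edgeR adjusted p = 3.91e-06). *Mcam* at chr9:44134469-44142727, a melanoma cell adhesion molecule that overlaps a gene on the opposite strand, rose from 0.980, 2.40 and 1.94 CPM to 31.4, 30.6 and 32.8 CPM (4.14, SE 0.254, adjusted p = 3.29e-06). Dox-treated levels of both genes lay within a narrow range and far above every untreated library. *Itga3*, an integrin subunit that binds laminins, went from 29.6, 22.7 and 15.8 CPM to 42.2, 55.8 and 57.6 CPM (1.19, SE 0.216, adjusted p = 0.00184), again with no overlap. Without untreated replicate 3 its change was 0.98 (adjusted p = 0.000488), under 2-fold, so that 2 of the 5 candidates were then called.

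The cadherins among the candidates did not pass the threshold. *Cdh23* changed by 0.78 on the log2 scale (edgeR adjusted p = 0.0562) with separate groups, and *Cdh15*, the muscle cadherin, had -0.55 (adjusted p = 0.0656) with overlapping groups. Without untreated replicate 1 *Cdh23* reached 1.21 (adjusted p = 0.00131), which made 4 candidates called up, and without untreated replicate 3 *Cdh15* reached -0.77 (0.00127). With DESeq2 both passed, at 0.0198 for *Cdh23* and 0.0224 for *Cdh15*. The study had named these 5 genes with results of this cell line in view, so their count is not independent evidence of a direction.

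In the other adhesion families some genes were higher and some lower, and the counts stand beside 21.4% higher and 23.7% lower of all genes tested. Of 34 cadherins and protocadherins 21 were tested, 6 were higher and 9 lower, and those called by the 2-fold rule were *Cdh24* (1.27), the synaptic cadherin *Clstn3* (2.79) and the planar polarity cadherin *Celsr1* (2.79) upwards and *Cdh6* (-3.84), the epithelial *Cdh1* (-2.81), *Pcdh1* (-1.59) and *Cdh11* (-1.37) downwards. *Celsr1* lost the call without untreated replicate 1 (2.44, edgeR adjusted p = 0.0574) or dox-treated replicate 2 (2.19, 0.0800). Of 21 integrins 16 were tested, 5 higher and 8 lower, with 3 higher without untreated replicate 2 or dox-treated replicate 3. *Itga7*, the main laminin receptor subunit of muscle fibres, fell from 1449, 1056 and 814 CPM to 260.2, 324 and 318 CPM (log2 fold change -1.88, SE 0.192, edgeR adjusted p = 6.63e-05), and the untreated libraries varied more than the dox-treated ones without reaching them. *Itgb2* (-3.73), *Itgb3* (-1.54) and *Itga6* (-1.46) were also downregulated, and *Itga10* (1.30), *Itga8* (1.50) and *Itga3* upregulated. The *Itga8* call was lost without any of 5 of the 6 libraries, at 1.14 to 1.67 and adjusted p of 0.0547 to 0.135, dox-treated replicate 2 being the exception, and without untreated replicate 3 only 1 integrin was called up. Among 40 immunoglobulin-type adhesion genes 19 were tested, 6 higher and 3 lower, with *Mpzl1* (1.08) and *Jam3* called up beside *Cadm4* and *Mcam*, and *Ncam1* (-1.07) and *Alcam* (-1.04) called down. With library totals alone neither decrease was past 2-fold (-0.86 and -0.83). *Alcam* was also under 2-fold without untreated replicate 3 (-0.93) or dox-treated replicate 2 (-0.88), and *Mpzl1* without untreated replicate 2 (0.97).

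Contractile genes were lower on balance, but not all of them. Of 50 sarcomere genes 47 were tested, 29 were lower and 7 higher, 15 were called down and 3 up, and the median was -0.53 (-0.32 with library totals alone). Of all genes tested 23.7% were lower and 21.4% higher, and 8.8% and 7.32% were called. The slow myosin heavy chain *Myh7* went from 126, 113 and 76.3 CPM to 13.7, 18.1 and 17.4 CPM (log2 fold change -2.68, SE 0.196, edgeR adjusted p = 9.02e-06), and the adult fast chains *Myh1* (-2.42) and *Myh4* (-2.37) fell with it. *Myh1*, *Myh2* and *Myh4* are near-identical, so reads may be split between them, and *Myh7* and *Myh1* overlap genes on the opposite strand. The skeletal actin gene *Acta1* fell by 1.05 on the log2 scale with groups that were close, 4287, 3031 and 1801 CPM against 1077, 1702 and 1628 CPM. It was under 2-fold without untreated replicate 1 (-0.72) or dox-treated replicate 1 (-0.87). The embryonic chain *Myh3* moved the other way, from 1771, 1758 and 1492 CPM to 2527, 3167 and 3173 CPM (0.82, SE 0.116, adjusted p = 0.000459). All 3 dox-treated libraries exceeded all untreated ones for *Myh3*. The Z-disc genes *Actn2* (1.19) and *Myoz1* (1.74) and the myosin-binding *Mybpc2* (1.20) were the 3 called up, and with library totals alone 5 were.

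Genes of excitation and of the neuromuscular junction had members lower and members higher. Of 29 excitation-contraction coupling genes 27 were tested, 10 lower and 5 higher, beside 23.7% and 21.4% of all genes tested, with a median of -0.20. With library totals alone 8 were higher, 3 in place of 5 were called down and the median was 0.01. The median was -0.12 without untreated replicate 1, -0.30 without untreated replicate 3 and -0.12 without dox-treated replicate 1, and -0.13 with genes that have an opposite-strand overlap left out. The calcium channel subunits *Cacng1* (-1.97), *Cacnb1* (-1.47) and *Cacna1s* (-1.15), the junctional membrane protein *Jph2* (-1.74) and *Jsrp1* (-1.10) were downregulated. *Jsrp1* lost the call with DESeq2 (-1.09, adjusted p = 0.0632) and without untreated replicate 1 or 2 or dox-treated replicate 1 or 3 (-1.21 to -0.56, edgeR adjusted p of 0.0575 to 0.0980). *Clcn1*, the chloride channel that stabilises the resting potential of muscle fibres, was the only one called up, from 0.840, 0.857 and 0.857 CPM to 6.94, 9.10 and 9.06 CPM (log2 fold change 3.29, SE 0.242, edgeR adjusted p = 9.36e-06). *Clcn1* overlaps a gene on the opposite strand, and with such genes left out no member was called up. All 16 neuromuscular junction genes were tested, 7 lower and 3 higher, beside the same 23.7% and 21.4%. Their median was -0.29, with -0.46 without untreated replicate 3, -0.44 without dox-treated replicate 1, -0.45 without dox-treated replicate 2 and -0.09 with library totals alone. Acetylcholine receptor subunits *Chrng* (-1.73), *Chrnd* (-1.35) and *Chrna1* (-1.08) fell, together with the adaptor *Dok7* (-1.74), the ETS factor *Etv5* (-2.48) and *Ncam1*. The synaptic basal lamina genes *Agrn* (1.18), *Colq* (2.26) and *Ache* (1.59) were higher, of which *Ache* lost the call without untreated replicate 2 (1.77, adjusted p = 0.0963) or any of dox-treated replicates 1, 2 and 3 (1.22 to 1.74, adjusted p of 0.0636 to 0.172).

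Genes of muscle energy metabolism had a median of 0.36, with 9 of 22 tested higher and 5 lower, of 23 listed, beside 21.4% and 23.7% of all genes tested. The median was 0.56 with library totals alone. Their summed level was 3053 to 4984 CPM without and 3035 to 3711 CPM with dox, and the ranges overlap. Without untreated replicate 3 the median was 0.15, with 8 higher and 7 lower, and without untreated replicate 2, dox-treated replicate 1 or dox-treated replicate 3, or with library totals alone, 3 were lower. The catalytic subunit gene of phosphorylase kinase, *Phkg1*, rose from 0.420, 0.300 and 0.451 CPM to 5.05, 6.29 and 6.48 CPM (log2 fold change 3.91, SE 0.304, edgeR adjusted p = 1.31e-05). *Ampd1*, the muscle AMP deaminase (3.52), the respiratory subunit *Cox7a1* (2.78), the mitochondrial creatine kinase *Ckmt2* (2.17), *Pgam2* (1.47) and *Phka1* (1.03) were the other genes called up, *Phka1* falling just under 2-fold without untreated replicate 1 or 2 (1.00 and 0.96). Untreated levels of *Phkg1* and *Ampd1* were near 1 CPM or lower in every library. Against these, myoglobin (*Mb*) fell from 589, 472 and 353 CPM to 77.9, 99.0 and 96.7 CPM (-2.37, SE 0.181, adjusted p = 1.18e-05), and the respiratory subunit *Cox6a2* fell by 3.11 on the log2 scale.

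**Figure D3:**
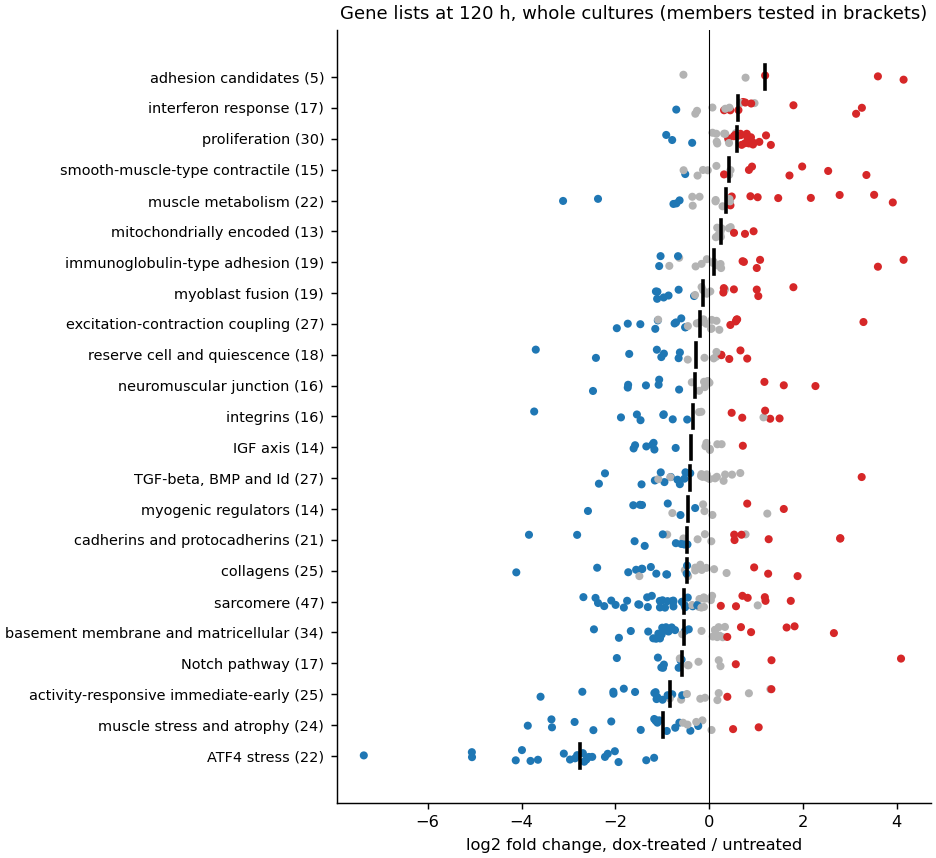
Log2 fold change of dox-treated over untreated cultures for the members of each gene list that were tested at 120 h, 1 point per gene, red for higher and blue for lower at an adjusted p under 0.05, grey otherwise, with the list median as a black bar and the number tested in brackets. The ATF4 stress list lies wholly below 0 with a median of -2.75, while the proliferation list has a median of 0.59.

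The ATF4 stress list was lower throughout: all 22 of its 22 genes were tested, all 22 were called down, beside 8.8% of all genes tested, and the groups overlapped for none. The median was -2.75, with a range of -7.36 to -1.17. *Atf4* itself (ENSMUSG00000042406) went from 957, 859 and 855 CPM to 235, 234 and 231 CPM (log2 fold change -1.93, SE 0.0835, edgeR adjusted p = 5.66e-07). The 3 dox-treated values are almost the same, and the lowest untreated value is far above them. With library totals alone 21 of the 22 were still called. The list was chosen with earlier results of these data known, so this count is not independent evidence of a direction.

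Within this list *Gdf15*, *Trib3* and *Fgf21* had the largest decreases. *Trib3*, a pseudokinase induced by ATF4, went from 196, 141 and 101 CPM to 3.23, 5.75 and 4.21 CPM (log2 fold change -5.06, SE 0.290, edgeR adjusted p = 2.18e-06). *Fgf21*, which codes for a secreted stress hormone, had 366, 228 and 154 CPM without and 7.09, 7.90 and 7.50 CPM with dox (-5.06, SE 0.305, adjusted p = 2.95e-06). In both genes the untreated libraries differed among themselves by much more than the dox-treated ones, and every dox-treated library was lower. *Gdf15*, another secreted stress factor, had 13.4, 9.26 and 5.42 CPM without dox, and no dox-treated library held more than 2 counts of it. Its fitted change of -7.36 depends on the prior count. Against a floor of 3 counts per library it was at least 80.4-fold lower, which was still the largest decrease of the list, so the median did not rest on it. *Ddit3*, the stress factor CHOP, fell from 85.1, 69.8 and 56.0 CPM to 4.79, 6.29 and 5.72 CPM (-3.65), and it overlaps a gene on the opposite strand.

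The amino acid genes of the list fell as well. *Slc7a11*, the cystine transporter, had 58.4, 61.1 and 74.8 CPM without dox and 3.19, 4.01 and 3.94 CPM with dox (log2 fold change -4.12, SE 0.157, edgeR adjusted p = 3.52e-07). *Chac1*, which degrades glutathione, had 162, 139 and 91.8 CPM against 7.76, 10.4 and 9.97 CPM (-3.81, SE 0.221, adjusted p = 2.27e-06). Neither gene had a dox-treated library near an untreated one. Asparagine synthetase (*Asns*) fell by 2.69 on the log2 scale, the serine synthesis genes *Phgdh*, *Psph* and *Psat1* by 2.97, 2.66 and 2.01, and the mitochondrial folate enzymes *Shmt2* and *Mthfd2* by 2.57 and 2.49. The smallest decreases were those of *Cebpb* (-1.34) and *Ddit4* (-1.17).

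**Figure D4:**
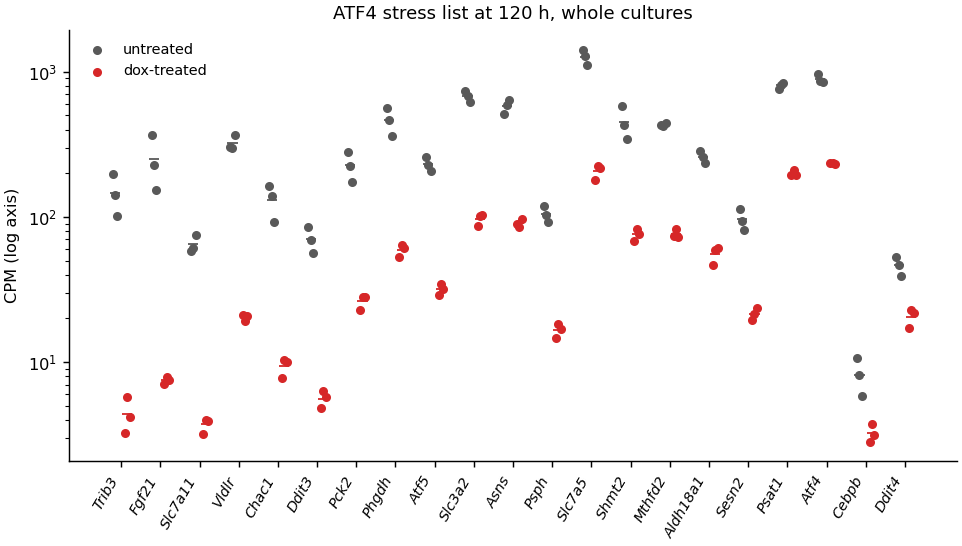
Level in CPM (log axis) of the ATF4 stress genes in each of the 3 untreated and 3 dox-treated cultures at 120 h, 1 point per library with the mean as a short line, and Gdf15 left out because 1 dox-treated library was at 0. Every dox-treated point lies below every untreated point of its gene, as for Atf4 with 231 to 235 CPM against 855 to 957 CPM.

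Promoters of these genes were read from RefSeq sequences on GRCm38.p6, in the 250 bases before the start, for the letters TGATGNAA, which the ATF4 and C/EBP composite element holds, on either strand. This search was chosen after the expression values had been seen. The letters stood in 6 of the 21 ATF4-list genes with a sequence (28.6%), in 2.37% of the 10011 tested genes with one, in 3.91% of all 27025 promoters, in 6% of 834 genes called down and in 2.19% of 730 genes called up. Stretches around the match are shown for the 4 of the 6 genes whose match lies outside the GENCODE gene model as well as before the RefSeq start, each 5′ to 3′ on the strand of its gene with the matching letters in capitals. The others are *Asns* and *Vldlr*, whose match lies before the RefSeq start but within the longer GENCODE gene. The windows are chr2:119351029-119351076 for *Chac1* on the plus strand, chr3:50443652-50443699 for *Slc7a11* on the minus strand, chr7:45615602-45615649 for *Fgf21* on the minus strand and chr14:55540143-55540190 for *Pck2* on the plus strand.
Chac1: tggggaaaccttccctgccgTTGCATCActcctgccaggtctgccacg
Slc7a11: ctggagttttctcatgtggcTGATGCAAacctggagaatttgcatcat
Fgf21: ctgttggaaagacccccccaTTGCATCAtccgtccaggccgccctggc
Pck2: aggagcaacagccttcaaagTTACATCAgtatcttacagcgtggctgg
In *Slc7a11* the letters stand as written and occur again, in the other orientation, in the lower-case end of the stretch. In *Chac1*, *Fgf21* and *Pck2* they stand on the opposite strand. *Pck2*, the mitochondrial PEP carboxykinase, fell from 279, 226 and 174 CPM to 22.9, 28.3 and 28.2 CPM (log2 fold change -3.10). A match describes the letters and not a bound site.

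The E-box letters CAGCTG, one of the sequences MyoD1 recognises, stood in 14.6% of the promoters of tested genes, in 18.8% of those of genes called up (137 of 730) and in 20.9% of those of genes called down (174 of 834). They were in 14 of 39 sarcomere promoters (35.9%), in 2 of 21 promoters of the ATF4 list (9.52%), in 0 of 9 promoters of myogenic regulators and in 0 of 5 promoters of the adhesion candidates. No match says only that these letters are not in this window.

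In the lists of muscle stress and of immediate-early genes more members were lower than higher, and not all passed the test. All 24 muscle stress and atrophy genes were tested, 17 lower and 2 higher, beside 23.7% and 21.4% of all genes tested, with a median of -0.98. *Ankrd1*, a stretch-responsive titin partner, fell from 2012, 1922 and 2067 CPM to 208, 191 and 188 CPM (log2 fold change -3.35, SE 0.0895, edgeR adjusted p = 1.38e-07), and the growth-arrest gene *Gadd45a* from 373, 326 and 337 CPM to 36.9, 33.1 and 30.5 CPM (-3.36, SE 0.106, adjusted p = 1.67e-07). Both genes varied little within either group. The actin-binding *Xirp2* (-3.87) and the muscle ubiquitin ligase *Trim63* (-2.09) also fell. The other muscle atrophy ligase, *Fbxo32*, was higher (0.51), and the small heat shock gene *Hspb6* (1.05) was the only member called up, which it was not without untreated replicate 2 (0.96). The 12 members called down stand beside 8.8% of all genes tested, and 7 were called with library totals alone.

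All 25 immediate-early genes were tested, with 14 lower and 2 higher, beside 23.7% and 21.4% of all genes tested. A further 9 did not pass, and the median was -0.84. *Atf3*, a stress-induced member of the ATF family, fell from 28.3, 25.3 and 26.0 CPM to 1.63, 2.73 and 2.24 CPM (log2 fold change -3.59, SE 0.195, edgeR adjusted p = 1.77e-06). *Junb*, a subunit of AP-1, had 72.9, 37.0 and 15.4 CPM against 5.68, 7.41 and 6.14 CPM (-2.70, SE 0.467, adjusted p = 0.00143). The groups were apart for both, but the untreated *Junb* values covered a wide range. *Ier2* and *Myc* each fell by 2.04 on the log2 scale, whereas *Fos* (-0.60), *Egr1* (-0.09) and *Arc* (1.30) did not pass the test. *Rgs2*, a regulator of G-protein signalling, was the only gene called up (1.33), beside 7.32% of all genes tested. The 10 members called down stand beside 8.8% of all genes tested. With library totals alone 6 were called down, and without dox-treated replicate 2 or 3 only 1 gene was higher.

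In both matrix lists more genes were lower than higher. Of 27 collagens 25 were tested, 12 lower and 3 higher, beside 23.7% and 21.4% of all genes tested, with 8 called down and 2 up, beside 8.8% and 7.32%. Their median was -0.48 (-0.30 without untreated replicate 1 and -0.28 with library totals alone). *Col25a1*, a transmembrane collagen of muscle, fell from 25.1, 15.3 and 20.5 CPM to 1.71, 0.952 and 0.834 CPM (log2 fold change -4.11, SE 0.301, edgeR adjusted p = 9.07e-06). *Col18a1* (-2.39) and the fibrillar *Col1a1* (-1.43) fell less, and *Col7a1* (1.88) and *Col4a5* (1.26) were upregulated. *Col1a1* had the values 889, 650.2 and 376 CPM without dox and 205, 238 and 265 CPM with dox, so the groups were apart but close.

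Of 37 basement membrane and matricellular genes 34 were tested, 18 lower and 6 higher (median -0.55), beside 23.7% and 21.4% of all genes tested. Past 2-fold 11 were called down and 3 up, beside 8.8% and 7.32%. With library totals alone 17 were lower and 11 higher, 4 in place of 11 were called down and the median was -0.34. *Spp1*, which codes for osteopontin, fell from 1483, 1528 and 1761 CPM to 309, 267 and 294 CPM (log2 fold change -2.46, SE 0.103, edgeR adjusted p = 4.99e-07). *Postn* (-1.92) and *Fn1* (-1.67), the genes of periostin and fibronectin, fell with it, *Fn1* overlapping a gene on the opposite strand. Called up were 3 genes, the matricellular *Ccn3* (2.66), the keratan sulphate proteoglycan *Lum* (1.82) and the elastin gene *Eln* (1.65). *Eln* lost the call without untreated replicate 2 or 3 or dox-treated replicate 2 or 3 (1.34 to 1.62, edgeR adjusted p of 0.0793 to 0.129). *Lama2*, the laminin chain of the muscle basement membrane, was higher by less than 2-fold (0.89), at 119, 132 and 139 CPM without and 252, 238 and 235 CPM with dox.

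In each of 3 signalling lists more genes were lower than higher, where all genes tested had 23.7% lower and 21.4% higher. Of 20 Notch pathway genes 17 were tested, 8 lower and 3 higher (median -0.59, with library totals alone -0.38). The ligand gene *Jag1* fell from 73.7, 70.5 and 74.7 CPM to 16.7, 17.4 and 21.9 CPM (log2 fold change -1.97, SE 0.125, edgeR adjusted p = 3.91e-06), and the effector *Rbpj* (-1.09) and target *Heyl* (-1.02) were also called down. With library totals alone *Rbpj* (-0.89) and *Heyl* (-0.82) were under 2-fold, as was *Heyl* without untreated replicate 1 or dox-treated replicate 1 (-0.96 in both), and without untreated replicate 3 the list had 5 genes called down. No receptor gene passed the test (*Notch1* -0.23, *Notch2* 0.20, *Notch3* -0.46, *Notch4* 0.24). The Fringe genes *Mfng* (4.09) and *Lfng* (1.33) were called up, but no untreated library held more than 2 counts of *Mfng*, so its fitted change depends on the prior count. The *Lfng* call was lost without untreated replicate 2 or 3 or any of dox-treated replicates 1, 2 and 3 (0.95 to 1.47, adjusted p of 0.0545 to 0.140).

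In the TGF-beta and BMP family, 27 of 32 genes were tested, 12 lower and 1 higher (median -0.40), beside 23.7% and 21.4% of all genes tested. Without untreated replicate 1 or 3, 2 were higher, and with library totals alone 4 were higher and 3 in place of 5 were called down. The median was -0.23 without untreated replicate 1, -0.20 with library totals alone and -0.18 with genes that have an opposite-strand overlap left out. *Gdf11*, a secreted ligand related to myostatin, was the one that rose, from 15.6, 15.9 and 14.1 CPM to 155, 142 and 138 CPM (log2 fold change 3.25, SE 0.101, edgeR adjusted p = 1.67e-07). Both groups were tight and far apart. The targets *Id2* (-2.22), *Smad7* (-1.44) and *Id1* (-1.16), the ligand *Tgfb3* (-1.03) and the latency protein gene *Ltbp2* (-2.35) were called down, *Tgfb3* not without untreated replicate 1 (-0.90).

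Of 16 IGF-axis genes 14 were tested, 7 lower and 1 higher, beside 23.7% and 21.4% of all genes tested, and the list median was -0.40. This median was -0.19 with library totals alone and -0.06 with genes that have an opposite-strand overlap left out. *Igf1*, the growth factor, was higher, at 108, 122 and 125 CPM without and 220.0, 181 and 182 CPM with dox (log2 fold change 0.72, SE 0.105, edgeR adjusted p = 0.000567), and *Igf2* had 722 ± 16.4 and 683 ± 12.8 CPM (-0.08, adjusted p = 0.413). The binding protein genes *Igfbp3* (-1.22), *Igfbp4* (-1.19), *Igfbp5* (-1.17) and *Igfbp6* (-1.58), the imprinted RNA *H19* (-1.34) and the insulin receptor substrate *Irs2* (-1.61) were called down, *Irs2* missing the threshold without untreated replicate 1 (-1.26, adjusted p = 0.0509).

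Of the cell cycle genes more were higher than lower, most of them by less than 2-fold. All 30 proliferation genes were tested, 18 higher and 3 lower, beside 21.4% and 23.7% of all genes tested, with a median of 0.59. Past 2-fold 3 were called up, beside 7.32%. *Mki67*, the gene of the Ki-67 antigen, rose from 66.3, 81.1 and 76.1 CPM to 178, 148 and 142 CPM (log2 fold change 1.07, SE 0.115, edgeR adjusted p = 9.47e-05). The G1 cyclin gene *Ccne1* (1.31) and the spindle checkpoint kinase gene *Bub1* (1.21) were the other members called up, and *Rrm2* (-0.92), *Mcm7* (-0.79) and *Pcna* (-0.36), which serve DNA synthesis, were lower. *Mki67* was just under 2-fold without untreated replicate 1 (0.99) or dox-treated replicate 1 (0.96). The 3 calls became 6 without untreated replicate 2 and 10 with library totals alone. For *Pcna*, library totals alone gave a value that missed the threshold. *Cdkn1a*, the gene of the cell cycle inhibitor p21, fell from 2447, 2212 and 2069.9 CPM to 691, 674 and 699 CPM (-1.70, SE 0.0899, adjusted p = 1.60e-06). In the list of reserve cell and quiescence genes, to which *Cdkn1a* and *Pax7* belong, 18 of 21 were tested, 8 lower and 5 higher, with 3 higher without untreated replicate 2 or any of the 3 dox-treated replicates. Past 2-fold 5 were lower, *Klf4* (-3.70), *Spry1* (-2.41), *Ltbp4* (-1.12) and *Heyl* beside *Cdkn1a*, and 3 were called with library totals alone or without untreated replicate 1. *Ltbp4* lost the call without untreated replicate 1 or 2 or dox-treated replicate 1 or 3 (-1.14 to -0.71, edgeR adjusted p of 0.0533 to 0.0766).

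Of 16 smooth-muscle-type contractile genes 15 were tested, 7 higher and 1 lower (median 0.42), beside 21.4% and 23.7% of all genes tested, while their summed level was 3444 to 3907 CPM without and 2955 to 3265 CPM with dox. *Myl9*, a regulatory light chain, rose from 14.1, 13.3 and 7.90 CPM to 56.5, 74.8 and 73.7 CPM (log2 fold change 2.54, SE 0.215, edgeR adjusted p = 2.20e-05), and *Cnn1* (3.35), *Myh11* (1.98) and *Lmod1* (1.71) were also called up. *Myh11* lost the call without untreated replicate 2 (1.54, adjusted p = 0.0589) or dox-treated replicate 3 (1.88, 0.0580). *Acta2*, the smooth muscle actin gene, was lower (-0.51), and without untreated replicate 1 or 3 the list had 2 genes lower.

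The 12 largest increases and decreases in genes that averaged 5 CPM or more held members of these lists and other genes. In these, after *Mcam*, *Atp1b2*, a subunit of the sodium-potassium ATPase, rose most, from 2.99, 2.70 and 1.58 CPM to 42.9, 40.1 and 42.4 CPM (log2 fold change 4.11, SE 0.209, edgeR adjusted p = 1.26e-06). The ubiquitin ligase gene *Rnf128* (3.77), the mitochondrial *Mss51* (3.58), the kinase anchor gene *Akap12* (3.49), the cholesterol exporter *Abca1* (3.35), the scaffold gene *Mpp3* (3.29), the glycerol phosphate dehydrogenase *Gpd1* (3.15) and *Myrf* (2.98) followed, beside *Cadm4*, *Ampd1* and *Gdf11*. All 12 had every dox-treated library above every untreated one, as the rule that chose them required.

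Of these genes *Akr1b7*, an aldo-keto reductase gene, fell most, with 67.0, 73.1 and 69.8 CPM without dox and 0, 0 and 0.152 CPM with dox, the last from 4 counts. It overlaps a gene on the opposite strand, and its fitted log2 fold change of -10.27 rests on these counts. *Cdsn*, the gene of corneodesmosin, a cell adhesion protein of skin, fell from 169.7, 129 and 120.4 CPM to 1.56, 2.77 and 1.86 CPM (-6.09, SE 0.225, edgeR adjusted p = 2.95e-07). The carbonic anhydrase gene *Car6* (-6.07), the receptor gene *Gpr141* (-5.94), the actin-binding *Avil* (-5.92), the connexin gene *Gja5* (-5.48), the ATP receptor gene *P2rx3* (-5.05), the lubricin gene *Prg4* (-4.74), the cysteine synthesis gene *Cth* (-4.66) and the neurotrophic factor gene *Artn* (-4.66) also fell, beside *Trib3* and *Fgf21*. In dox-treated libraries *Car6*, *Gpr141*, *Avil* and *Gja5* were each below 1 CPM.

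The dox comparisons in undifferentiated cells (24 h of dox in growth medium, given as 0 h) and at 24 h and 48 h used other libraries, each fitted alone. They called 394 genes up (2.91%) and 184 down (1.36%) at 0 h, 1129 (8.02%) and 722 (5.13%) at 24 h, and 823 (5.93%) and 1174 (8.46%) at 48 h. Of 890 genes up at 120 h and tested at 48 h, 316 were also up at 48 h, which is 35.5% of the former and 47.6% of the latter, where 5.12% of all genes tested at both times were up at 48 h. For genes down the shares were 39.7% and 39.5% (434 genes), beside 8.47%. At 24 h they were 41.8% and 41.2% for genes up (363 genes, beside 6.96%) and 20% and 32.8% for genes down (197 genes, beside 4.74%). At 0 h they were 16% and 45.7% up (138 genes, beside 2.42%) and 3.92% and 30.6% down (37 genes, beside 0.968%).

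In 12244 genes tested at all 4 times, 817 were up at 120 h, and 390 of these were up at no earlier time and 92 at all 3. Of 895 down at 120 h, 522 were down at no earlier time and 9 at all 3. Among those up throughout, *Atp1b2* had log2 fold changes of 2.59, 5.64, 2.92 and 4.11 at 0, 24, 48 and 120 h, and *Gdf11* had 1.05, 1.51, 1.77 and 3.25. *Cadm4*, *Akap12*, *Myrf* and *Nol4l* were up at the 4 times as well. *Spp1* was down throughout (-1.84, -2.15, -1.54 and -2.46), as were *Anxa8* and *Prkg2*.

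**Figure D5:**
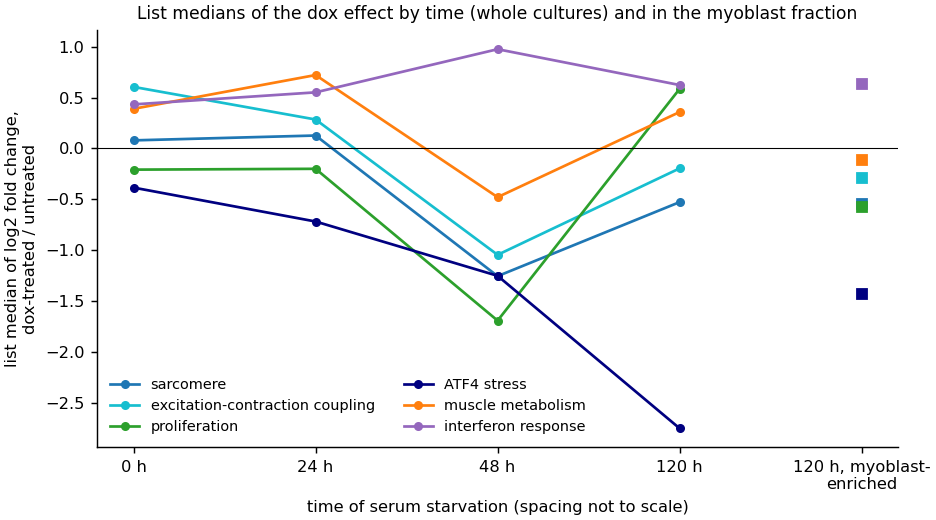
Median log2 fold change of dox-treated over untreated cultures (vertical) for gene lists at 0, 24, 48 and 120 h in whole cultures and in the 120 h myoblast-enriched fraction (horizontal, spacing not to scale), over the members tested in each comparison, for sarcomere genes 21 at 0 h and 47 at 120 h. The proliferation median is -1.69 at 48 h and 0.59 at 120 h, and the ATF4 stress median goes from -0.39 at 0 h to -2.75 at 120 h.

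The dox effect at 120 h differed from that at 48 h in many genes. In a test of the difference itself over the 12 libraries of both times, 1058 of 14734 genes were more positive at 120 h (7.18%) and 867 more negative (5.88%). Among the 30 proliferation genes 26 were more positive at 120 h, the list median being -1.69 at 48 h. *Mki67* had -1.90 at 48 h and 1.07 at 120 h on the log2 scale, a difference of 2.97 (SE 0.160, edgeR adjusted p = 3.09e-08). Sarcomere genes had a median of -1.26 at 48 h, and 13 of 47 were more positive at 120 h and 2 more negative. *Myh3* went from -1.37 to 0.82, a difference of 2.19 (SE 0.164, adjusted p = 3.44e-07). Among the muscle metabolism genes 8 of 22 were more positive and 2 more negative.

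The ATF4 stress list went the other way, with 16 of 22 genes more negative at 120 h, beside 5.88% of all genes tested, and a median of -1.25 at 48 h. *Ddit3* had -0.11 at 48 h, a difference of -3.55 (SE 0.229, edgeR adjusted p = 8.26e-08), and *Slc7a11* -0.23, a difference of -3.90 (SE 0.530, adjusted p = 8.36e-05). *Myog* was more negative at 120 h by 1.09 and *Myod1* by 1.26, both as differences on the log2 scale, and *Mcam* more positive by 3.23. Weak genes that lie opposite an abundant gene, 835 in all, summed to 652 to 672 CPM in untreated and 641 to 683 CPM in dox-treated 120 h whole cultures. At 48 h they summed to 986 to 1020 CPM without and 1200 to 1340 CPM with dox. In the myoblast-enriched fraction the sums were 960 to 1120 CPM without and 1130 to 1360 CPM with dox. The 120 h whole cultures also had a count in fewer genes, 16373 to 17004 per library against 18082 to 20178 at 48 h and 18429 to 19606 in the fraction. The labels name the same kit and the same batch for these sets of libraries, and the strand setting is not given in the sources used here. The part of this difference in the comparison was not tested. The dox-treated and untreated 120 h whole cultures did not differ in this sum beyond their range, whereas at 48 h and in the fraction every dox-treated library was higher. The dox effects at 48 h and in the fraction enter the tests of differences, and the part of this sum in them was not tested.

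In the fraction of 120 h cultures that passed a 40 um strainer and is enriched for myoblasts, with 3 untreated and 2 dox-treated libraries, dox upregulated 172 genes (1.21%) and downregulated 260 (1.82%). Of 920 genes up in whole cultures and tested there, 109 were also up in the fraction, 11.8% of the former and 75.2% of the latter. For genes down the shares were 14.1% and 64.5% (160 genes). Of all genes tested in both, 1.1% were up and 1.89% down in the fraction. The dox effect was more positive in whole cultures for 367 of 15122 genes (2.43%) and more negative for 337 (2.23%).

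These counts moved with single libraries. Where 1 of the 2 dox-treated myoblast libraries was left out, the remaining one was assumed to vary like the other groups. The counts were 116 and 164 without dox-treated myoblast replicate 2, 193 and 204 without untreated myoblast replicate 3, 205 and 179 without untreated whole-culture replicate 2, and 211 and 183 without dox-treated whole-culture replicate 1. Without untreated myoblast replicate 2 there were 609 more positive genes, without dox-treated whole-culture replicate 3 228, and without untreated whole-culture replicates 1 and 3 there were 195 and 669 more negative ones. Of the ATF4 stress genes 14 of 22 were more negative in whole cultures, beside 2.23% of all genes tested, where the median in the fraction was -1.44. *Fgf21* had -5.06 in whole cultures and -2.47 in the fraction, a difference of -2.58 (SE 0.418, edgeR adjusted p = 0.00561). *Rnf128*, at 0.17 in the fraction, differed by 3.59, *Myog* by -1.17 and *Myod1* by -1.45.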

How the data were processed

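The deposited values are estimated counts per transcript, which the authors made with the nf-core/rnaseq pipeline, and Salmon and mm10 are named in the submitters' processing notes. The annotation and the strand setting are not given in the sources used here, and the label names the NEBNext Ultra II RNA kit. The authors tested with DESeq2 in R. Here the 109617 transcripts of the table of 48 h and 120 h libraries were summed to 45706 genes by gene_id and rounded to whole numbers, and 98.77% of the genes took a symbol and mm10 coordinates from GENCODE.

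Genes were filtered with filterByExpr, scaled with TMM and tested with edgeR 4.0.16 (glmQLFit and glmQLFTest) in R 4.3.3 over the 3 dox-treated and 3 untreated libraries, with Benjamini-Hochberg adjustment over all 13628 genes. Genes were called at an adjusted p under 0.05 and more than 2-fold. CPM values use TMM-scaled library sizes, errors are SD over 3 libraries, and each SE was computed from the log2 fold change and its F statistic. An interaction term tested whether dox effects differed, and each earlier time was fitted alone on its own libraries. The scripts were checked on simulated data. The labels call the libraries biological replicates. A permutation of 3 against 3 libraries cannot give a p below 0.1, so single genes were read from the fit across all genes. Depth was 22370787 to 25394025 estimated counts per library, and a floor of 3 counts corresponds to 0.116 CPM with dox and 0.135 CPM without, for counting error only. No library is a copy of another.

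The members of the gene lists, the promoter motifs and the genes shown for them were chosen with earlier results of these data known. Named genes were *Myod1*, *Myog*, *Mymk*, *Mymx* and the 5 adhesion candidates, the 12 largest changes in each direction among genes past the threshold that averaged 5 CPM or more and whose groups did not overlap (predicted genes and pseudogenes left out), the 3 highest and 3 lowest members of each list past the threshold that averaged 1 CPM or more, the members behind small counts, the 6 genes with the same direction at all times by size, and the 5 largest differences of dox effects in each direction. Further members of the lists, among them those that failed a test, are named beside these and were chosen after their values were seen. Alternatives were DESeq2 1.42.0, RLE scaling, library totals alone, no filter on low counts, all 12 libraries of the table in 1 fit, the replicate number as a block, leaving out genes overlapped on the opposite strand, and leaving out each library in turn.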

Additional observations from a re-analysis of the deposited data

Results flagged for a closer look

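The dox effect differed between 120 h and 48 h whole cultures in a test of the interaction for 1058 genes that were more positive and 867 that were more negative at 120 h. The largest positive differences on the log2 scale were those of ENSMUSG00000107025 (8.15), *Mss51* (5.12), *Ampd1* (4.84), *Rnf128* (4.15) and *Nrxn3* (3.90). ENSMUSG00000107025 had 27, 0 and 0 counts in untreated and 0 in dox-treated libraries at 48 h, and without untreated 48 h replicate 1 its difference was 1.49 with an edgeR adjusted p of 1.00. *Nrxn3* overlaps a gene on the opposite strand. The largest negative differences were those of *Akr1b7* (-9.07), *Car6* (-6.06), *Avil* (-5.87), *Cdsn* (-5.65) and *Bglap2* (-4.12). At 48 h *Akr1b7*, *Car6* and *Avil* had at most 12, 9 and 18 counts in any library, so their dox effect at 48 h had little depth behind it, and *Bglap2* shares reads with the near-identical *Bglap*. *Myod1*, *Myog* and *Mcam* differed by -1.26, -1.09 and 3.23.

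Between whole cultures and the myoblast-enriched fraction at 120 h the dox effect was more positive in whole cultures for 367 genes and more negative for 337. *Rnf128* (3.59), *Fras1* (3.33), *Ccn3* (3.10), *Tm6sf1* (2.96) and *Mpp3* (2.96) had the largest positive differences, *Fras1* and *Tm6sf1* overlapping genes on the opposite strand. *Mpp3* missed the threshold without untreated myoblast replicate 3 (2.63, edgeR adjusted p = 0.05004) or dox-treated myoblast replicate 2 (2.75, 0.0946), the latter again with 1 library in that group. *Akr1b7* (-7.19), *Avil* (-3.86), *Bglap2* (-3.77), *Sirpa* (-3.59) and *Cdsn* (-3.29) had the largest negative ones. With 1 dox-treated myoblast library left, assumed to vary like the other groups, the fit without dox-treated myoblast replicate 3 lost the calls of *Akr1b7* (-6.22, adjusted p = 0.141), *Avil* (-3.09, 0.174) and *Bglap2* (-3.20, 0.0883). *Bglap2* also missed it without any of 5 whole-culture libraries, untreated replicates 1 and 2 and dox-treated replicates 1, 2 and 3 (-3.92 to -3.44, adjusted p of 0.0501 to 0.0612). *Myod1* and *Myog* differed by -1.45 and -1.17.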

How the results depend on the processing

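The counts of genes up and down at 120 h stayed within 1.5 times of 997 and 1199 under every alternative, at 1017 and 1197 with DESeq2, 1489 and 869 with library totals alone and 889 to 1017 and 1019 to 1388 with 1 library left out. Numbers did not pair the libraries (correlations of same-numbered libraries -0.631, 0.188 and -0.253 over 10357 genes), and the replicate block gave 887 up and 1106 down. Library totals alone moved list medians to -0.25 (myogenic regulators), -0.32 (sarcomere), -0.26 (cadherins), -0.14 (integrins), 0.30 (immunoglobulin-type adhesion), -0.34 (basement membrane), 0.79 (proliferation), -0.20 (TGF-beta), -0.19 (IGF), -0.78 (muscle stress), 0.83 (interferon), -0.092 (neuromuscular junction), -0.074 (reserve cell), -0.28 (collagens), -0.38 (Notch), 0.56 (muscle metabolism) and 0.45 (mitochondrially encoded), and turned those of fusion (0.075 from -0.13) and excitation-contraction coupling (0.0091 from -0.20), by construction, since the median of all genes moved by 0.20. Without genes overlapped on the opposite strand, 678 were up and 850 down of 9418 tested, and medians were -0.14 (myogenic regulators), -0.37 (sarcomere), -0.47 (integrins), -0.18 (TGF-beta), -0.065 (IGF), -0.11 (reserve cell), -0.13 (excitation-contraction coupling) and 0.44 (interferon), with fusion at 0.017 and immunoglobulin-type adhesion at -0.057 from 0.09. With 1 library left out, medians ranged from 0.0064 to 0.22 (immunoglobulin-type adhesion), -0.64 to -0.47 (basement membrane), -0.45 to -0.23 (TGF-beta), -1.13 to -0.75 (muscle stress) and 0.43 to 0.65 (interferon). The medians that moved by over 1.5 times were, without untreated replicate 1, those of cadherins (-0.28), collagens (-0.30), reserve cell (-0.11), TGF-beta (-0.23), excitation-contraction coupling (-0.12), mitochondrially encoded (0.10) and immunoglobulin-type adhesion (0.16) genes, and, without untreated replicate 3, those of muscle metabolism (0.15), neuromuscular junction (-0.46), integrins (-0.23), excitation-contraction coupling (-0.30), mitochondrially encoded (0.45) and immunoglobulin-type adhesion (0.011) genes. Without dox-treated replicate 1 those of excitation-contraction coupling (-0.12), neuromuscular junction (-0.44) and immunoglobulin-type adhesion (0.22) genes moved as much, without dox-treated replicate 2 those of neuromuscular junction (-0.45) and immunoglobulin-type adhesion (0.0064) genes, and without dox-treated replicate 3 that of immunoglobulin-type adhesion (0.056) genes.

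At an adjusted p alone, the shares of genes up and down at 120 h called the same way were 38.8% and 36.9% at 0 h, 59.1% and 59.6% at 24 h and 48.9% and 55.8% at 48 h. With no filter on low counts they were 38.3% and 17.1% at 24 h. The differences from 48 h stayed within 1.5 times under all alternatives run. Those from the myoblast-enriched fraction did not, with 588 more positive with DESeq2, 652 and 624 with no filter, 210 more negative with the replicate block, 220 more negative without overlapped genes, and 116 to 609 and 164 to 669 with 1 library left out, and the cause was not tested. Of 2915 values of named genes under alternatives, 2809 kept direction and side of the adjusted p threshold, 82 lost it, 15 gained it and 9 reversed, all 9 in genes that did not pass the test: *Egr1* (0.12), *Igf2* (0.12) and *Myf5* (0.10) with library totals alone and, with 1 library left out, *Egr1* (-0.21 to 0.016), *Myf5* (-0.24 to 0.059), *Notch1* (-0.44 to 0.0086) and *Notch4* (-0.14 to 1.00). Depth limits the genes under the floor of 3 counts in 1 group.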

Other observations

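Interferon response genes, which signal viral infection and cytosolic nucleic acid, had more members higher than lower. Of 24 genes 17 were tested, and 9 were higher and 1 lower at an adjusted p under 0.05, beside 21.4% and 23.7% of all genes tested, with a median log2 fold change of 0.62. The list median was 0.43, 0.55 and 0.98 at 0, 24 and 48 h. *Irf7*, the master regulator of the response, had 0.420, 0.214 and 0.181 CPM in untreated and 2.38, 2.65 and 2.84 CPM in dox-treated cultures (log2 fold change 3.25, SE 0.427, edgeR adjusted p = 0.000298). The groups were apart, at levels that were low in both. The immunoproteasome subunit gene *Psmb8* (3.13) and *Mx2* (1.80) were the other members called up, the signalling factor gene *Stat2* was higher by 0.90, and *Ifit2* was lower by 0.70. *Mx2* lost the call without untreated replicate 1 or 2 or dox-treated replicate 2 or 3 (1.40 to 1.84, edgeR adjusted p of 0.0561 to 0.0960), so that 2 were called up. No member was lower without untreated replicate 2 or dox-treated replicate 2 or 3, or with library totals alone, and without either of these dox-treated replicates or untreated replicate 2, 6 were higher.

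Of the 13 mitochondrially encoded genes, all tested, 3 were higher, the respiratory subunit genes *mt-Co3* (0.95), *mt-Nd2* (0.76) and *mt-Nd5* (0.53), or 3 of 13 beside 21.4% of all genes tested, and the median was 0.25. With library totals alone 7 were higher, and *mt-Co3* was past 2-fold (1.15). Without untreated replicate 3, 11 were higher with a median of 0.45 and *mt-Co3* past 2-fold (1.05), and without untreated replicate 1 the median was 0.10 with 3 higher. Their summed level was 38780 to 56520 CPM without and 55739 to 65053 CPM with dox, and the ranges overlap.

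Markers of other lineages were few among the genes tested. The myeloid integrin gene *Itgam* rose from 0.607, 0.986 and 0.632 CPM to 5.35, 3.52 and 2.80 CPM (2.38), while the other blood cell marker tested had -1.33 and did not pass. That marker was called down in the fit over all 12 libraries and without dox-treated replicate 2. The neuronal *Stmn2* fell (-2.29), and the other 3 Schwann cell and neuron markers tested did not pass, the highest at 0.50. The adipogenic *Pparg* fell (-1.94), and the other adipocyte marker tested had 0.37 and did not pass. All 4 bone and cartilage genes tested, *Bglap* (-3.77), *Sox9*, *Runx2* (-0.89) and *Dmp1* (-0.55), fell. *Bglap* was at 0 in 2 dox-treated libraries and shares reads with *Bglap2*.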
